A study of Mus musculus with 3 samples.

Results

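The 7 mouse genes described here encode the cyclin-dependent kinase inhibitors. They are the Cip/Kip genes Cdkn1a, Cdkn1b and Cdkn1c and the INK4 genes Cdkn2a, Cdkn2b, Cdkn2c and Cdkn2d. They were taken by symbol from the 17126 genes measured in the series, and all 7 had transcripts in every library. The cells were interstitial cells of mouse hearts, digested free with collagenase II, depleted of heart muscle cells by a slow spin, and sorted by flow cytometry on Lin28 and cKit at the cell surface. The Lin28+/cKit+ library held 1176 cells, the Lin28+/cKit- library 681 cells and the Lin28-/cKit- library 3976 cells. Each group was 1 droplet library of mRNA 3' ends. No source used here gives the strain, age, sex or number of the animals, or any treatment.

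Cyclin-dependent kinases drive a cell through its division cycle when a cyclin binds them. The INK4 proteins bind the kinases Cdk4 and Cdk6 and keep D-type cyclins away from them. The Cip/Kip proteins bind cyclin and kinase together, and act on the complexes of the later phases as well. Without kinase activity the retinoblastoma protein stays bound to E2F factors and the cell remains out of S phase. The retinoblastoma route is also how several of these proteins hold cells in quiescence or in senescence, the lasting arrest that the title of the series names. Most interstitial cells of an adult heart divide rarely.

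A level below is the summed UMIs (unique molecular identifiers, each 1 captured transcript) of a gene per 1000000 UMIs, written CPM, with its exact Poisson 95% interval in brackets. Because there was 1 library per group, no test of a difference between groups was possible, and every interval covers counting error only. A ratio between groups is called here when it is at least 1.5 or at most its inverse, its exact 95% interval leaves out 1, and the pair holds at least 20 UMIs. Capture of 3' ends differs between genes, so levels are compared between cells and not between genes.

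The libraries differed in makeup, which bears on each result over whole libraries. Macrophage-like cells made up 592, 268 and 14 cells of the Lin28+/cKit+, Lin28+/cKit- and Lin28-/cKit- libraries, endothelial-like cells 430, 243 and 925, and fibroblast-like cells 12, 34 and 2768. The 3 names rest on lists of 10 markers each, of which at least 9 marked every cluster so named. Median UMIs per cell were 8068.5, 9628 and 8630, and median mitochondrial shares 6.46%, 6.11% and 4.90%. The libraries shared at most 8 cell barcodes. Transcripts of Kit, the gene of the sorted receptor, stood at 7.02, 7.43 and 3.35 CPM, so the cKit+ sort had no higher Kit level than the Lin28+/cKit- sort. Lin28 transcripts were not analysed here.

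The 7 genes lie on 5 chromosomes (mm10, GENCODE vM21). Cdkn1a is at chr17:29090976-29100727 on the plus strand, Cdkn1b at chr6:134920401-134925513 on the plus strand and Cdkn1c at chr7:143458339-143461050 on the minus strand. Cdkn2a at chr4:89274471-89294653 and Cdkn2b at chr4:89306299-89311039 are neighbours on the minus strand with 11645 bases between them. Cdkn2c is at chr4:109660876-109667189 and Cdkn2d at chr9:21288410-21291407, both on the minus strand. Cdkn1c has the antisense gene Gm44732 opposite it, and Cdkn1a overlaps the unclassified gene AC167363.2. No source used here says whether the counting used strand, so their UMIs carry that uncertainty.

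Cdkn2a is the member whose single value hides a pair of products, so the junctions that tell them apart are shown. Each run gives the last 30 bases of a first exon in lower case and the first 20 bases of the shared exon 2 in capitals, 5' to 3' on the minus strand, from the GENCODE vM21 transcripts.
Cdkn2a-201: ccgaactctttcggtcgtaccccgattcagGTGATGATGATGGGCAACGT
Cdkn2a-202: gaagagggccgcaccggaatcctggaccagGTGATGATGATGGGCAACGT
The first exon of Cdkn2a-201, the INK4a transcript that encodes the kinase inhibitor, spans chr4:89281986-89282192. That of Cdkn2a-202, the ARF transcript, spans chr4:89294334-89294653 and opens a different reading frame, whose protein holds off Mdm2 and so stabilises p53. Both splice to the same exon at chr4:89276645-89276985 and share 575 exonic bases downstream of their first exons. Cdkn2a-202 has 320 bases of its own, all in its first exon. Cdkn2a-201 has 277, of which 207 are its first exon and the rest lie at its 3' end. That end is at chr4:89274471, beyond the 3' end of Cdkn2a-202 at chr4:89274541. The deposited tables give 1 value per gene, so a Cdkn2a UMI below stands for either product.

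Cdkn1a varied most between libraries among the well-counted members, and is the textbook target of p53, so the RefSeq window around its first annotated start is shown (GRCm38.p6, chr17:29090729-29091028, plus strand, 250 bases before the start to 50 after it). Capitals mark the p53 response element found there.
Cdkn1a: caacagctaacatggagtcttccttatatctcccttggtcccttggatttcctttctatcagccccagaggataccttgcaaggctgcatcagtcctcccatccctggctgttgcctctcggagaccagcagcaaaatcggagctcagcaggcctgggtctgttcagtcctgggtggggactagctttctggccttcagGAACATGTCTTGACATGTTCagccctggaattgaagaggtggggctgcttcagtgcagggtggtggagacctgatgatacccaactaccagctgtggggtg
The search took the p53 response element as 2 adjoining half-sites with at most 1 mismatch over 20 bases, which reads the same on both strands. Of all 32851 RefSeq windows of this length, 29 (0.0883%) held such an element. Of the 7 members 6 had a window (9 in all), and among the 9 only the Cdkn1a window shown held the element. The other Cdkn1a window, chr17:29093519-29093818, held none. The GC box GGGCGG, searched on both strands, lay in 7 of the 9 windows and in 35.7% of all windows. A match describes these letters, not a bound site.

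Cdkn1a encodes p21, the inhibitor that rises with p53 and with many stress signals. Its level was 529.7 CPM [515.8 to 543.9] in the Lin28+/cKit+ library, 448.6 [433.4 to 464.1] in the Lin28+/cKit- library and 139.8 [135.8 to 143.8] in the Lin28-/cKit- library. Both Lin28+ libraries stood well above the Lin28-/cKit- library. Within cell classes the spread narrowed. Macrophage-like cells held 650.2 CPM in the Lin28+/cKit+ library and 569.6 in the Lin28+/cKit- library, endothelial-like cells 257.8, 293.4 and 205.8 CPM in the 3 libraries in the same order as above, and fibroblast-like cells of the Lin28-/cKit- library 129.1 CPM. Macrophage-like cells exceeded endothelial-like cells of their own library 2.52-fold [2.33 to 2.74] in the Lin28+/cKit+ library and 1.94-fold [1.77 to 2.13] in the Lin28+/cKit- library. In the Lin28-/cKit- library fibroblast-like cells held 0.627 [0.582 to 0.676] of the endothelial-like level.

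Macrophage-like cells held 80.2% of all Cdkn1a UMIs of the Lin28+/cKit+ library and 76.1% of those of the Lin28+/cKit- library, against 65.3% and 59.97% of all UMIs. In the Lin28-/cKit- library fibroblast-like cells held 76.2% of Cdkn1a UMIs and 82.6% of all UMIs. Among macrophage-like cells Cdkn1a was found in 80.6% and 82.8% of those from the Lin28+/cKit+ and Lin28+/cKit- libraries, at median depths of 9903 and 13872 UMIs. It was found in 53.5%, 56.0% and 34.2% of endothelial-like cells of the Lin28+/cKit+, Lin28+/cKit- and Lin28-/cKit- libraries, at median depths of 5585.5, 7679 and 4057, and in 28.2% of fibroblast-like cells at 10124. None of these classes is known to lack Cdkn1a, so the last share is the lowest seen and not a background. With each cell thinned to 1000 UMIs, the share of all cells with a Cdkn1a UMI was 29.9%, 24.6% and 9.10%, against 64.2%, 58.9% and 29.6% unthinned. Over all cells the order of the libraries was the same at equal depth. Within classes the order of the Lin28+ libraries changed, with overlapping intervals. Thinned shares were 36.7% (Lin28+/cKit+) and 33.0% (Lin28+/cKit-) of macrophage-like cells. They were 24.3% (Lin28+/cKit+) and 20.1% (Lin28+/cKit-) of endothelial-like cells.

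**Figure D1:**
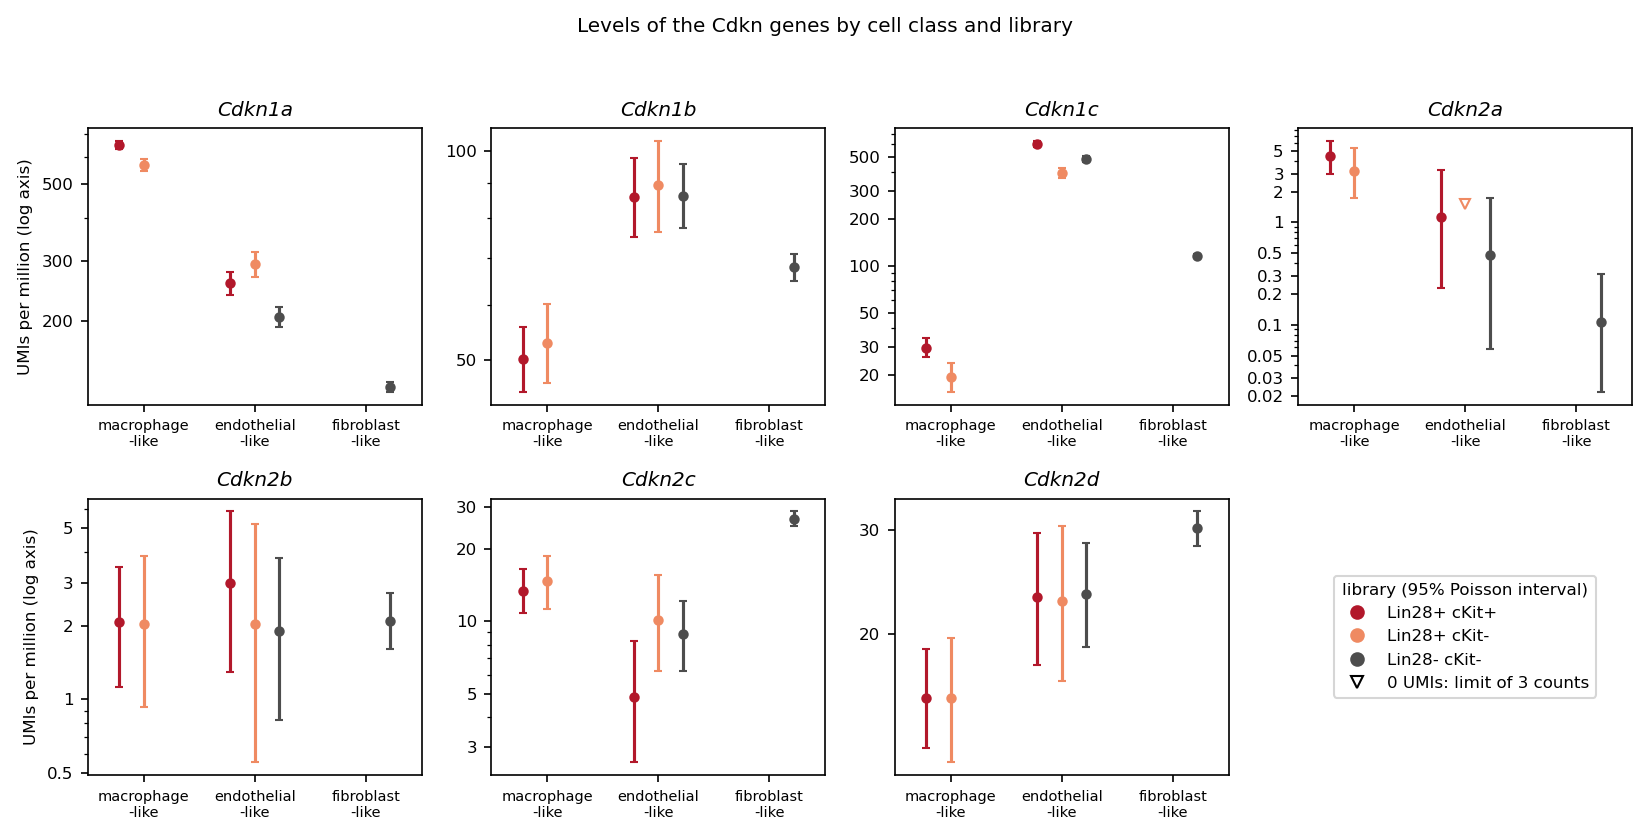
Level of each of the 7 inhibitor genes (CPM of summed UMIs, log axis) by cell class and library, with exact Poisson 95% intervals as bars. Cdkn1a is highest in macrophage-like cells (650.2 and 569.6 CPM) and Cdkn1c in endothelial-like cells (602.5, 392.2 and 483.5 CPM), while Cdkn1b is lower in macrophage-like cells (50.2 and 52.95 CPM) than in endothelial-like cells (85.8, 89.2 and 86.2 CPM). A triangle marks the limit of 3 counts where no UMI was found.

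Cdkn1c encodes p57, is imprinted with expression from the maternal copy, and is known for holding stem and differentiated cells in quiescence. Its order between macrophage-like and endothelial-like cells was the reverse of that of Cdkn1a. Endothelial-like cells held 602.5 CPM [573.5 to 632.6] in the Lin28+/cKit+ library, 392.2 [365.0 to 420.8] in the Lin28+/cKit- library and 483.5 [462.7 to 505.0] in the Lin28-/cKit- library. Macrophage-like cells held 29.7 and 19.4 CPM in the 2 Lin28+ libraries, and fibroblast-like cells of the Lin28-/cKit- library 115.1 CPM. Endothelial-like cells thus exceeded macrophage-like cells 20.3-fold and 20.2-fold in the 2 Lin28+ libraries, and fibroblast-like cells 4.20-fold in the Lin28-/cKit- library. A Cdkn1c UMI was found in 77.7% of endothelial-like cells and in 22.6% of macrophage-like cells of the Lin28+/cKit+ library, at median depths of 5585.5 and 9903. The deeper class therefore had the lower share.

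Small classes also held Cdkn1c. Pericyte-like cells had 458.1, 322.5 and 290.4 CPM in 6, 11 and 40 cells of the Lin28+/cKit+, Lin28+/cKit- and Lin28-/cKit- libraries. Epicardial or mesothelial-like cells had 24 UMIs in 6 Lin28+/cKit- cells and 76 UMIs in 4 Lin28-/cKit- cells, of which 55 lay in 1 cell. These classes had fewer than 50 cells per library and were not compared.

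Cdkn1b encodes p27, the inhibitor most tied to quiescence in many tissues and controlled largely by protein turnover. It varied little between libraries, at 63.9 CPM in the Lin28+/cKit+ library, 66.3 in the Lin28+/cKit- library and 73.0 in the Lin28-/cKit- library. By class it stood at 50.2 and 52.95 CPM in macrophage-like cells of the 2 Lin28+ libraries, at 85.8, 89.2 and 86.2 CPM in endothelial-like cells of the 3 libraries and at 68.0 CPM in fibroblast-like cells of the Lin28-/cKit- library. Macrophage-like cells held 0.585 and 0.594 of the endothelial-like level in the Lin28+/cKit+ and Lin28+/cKit- libraries. The 3 endothelial-like levels lie inside each other's intervals. B cell-like cells of the Lin28-/cKit- library, a class too small to compare, held 273.5 CPM from 22 UMIs in 20 cells.

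Among the INK4 genes, Cdkn2c (p18) and Cdkn2d (p19) are known for regulated expression in development and in the cell cycle. Cdkn2c stood at 12.7, 18.2 and 24.3 CPM in the Lin28+/cKit+, Lin28+/cKit- and Lin28-/cKit- libraries. It was lowest in endothelial-like cells, at 4.85, 10.1 and 8.83 CPM, higher in macrophage-like cells of the Lin28+ libraries, at 13.4 and 14.7, and highest in fibroblast-like cells of the Lin28-/cKit- library, at 26.8. The ratio of macrophage-like to endothelial-like cells was 2.76 [1.54 to 5.39] in the Lin28+/cKit+ library and 1.445 [0.864 to 2.52] in the Lin28+/cKit- library, the second with an interval that includes 1. Fibroblast-like cells exceeded endothelial-like cells 3.03-fold [2.18 to 4.34] in the Lin28-/cKit- library. Cdkn2d stood at 15.6 CPM in macrophage-like cells of each Lin28+ library, at 23.1, 22.8 and 23.4 CPM in endothelial-like cells of the 3 libraries and at 30.3 CPM in fibroblast-like cells of the Lin28-/cKit- library. The 3 endothelial-like Cdkn2d levels did not differ beyond counting error.

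Cdkn2b encodes p15, an inhibitor that TGF-beta signalling induces, and it was sparse. Its 24, 15 and 73 UMIs gave 2.31, 2.03 and 2.15 CPM in the Lin28+/cKit+, Lin28+/cKit- and Lin28-/cKit- libraries, and no cell held more than 2. Macrophage-like, endothelial-like and fibroblast-like cells with at least 50 cells per library all lay between 1.91 and 2.99 CPM. These levels did not differ beyond counting error.

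Cdkn2a was as sparse, and unevenly placed. The Lin28+/cKit+ library had 46 UMIs in 28 cells (4.42 CPM), the Lin28+/cKit- library 30 in 14 cells (4.05 CPM) and the Lin28-/cKit- library 8 in 7 cells (0.235 CPM). In the Lin28+/cKit+ library 30 UMIs lay in 17 macrophage-like cells, 13 in 8 cells of an unnamed cluster led by proliferation genes, and 3 in 3 endothelial-like cells. In the Lin28+/cKit- library 14 lay in 9 macrophage-like cells, 11 in 2 lymphatic endothelial-like cells with 8 of them in 1 cell, and 5 in 3 unnamed cells. The 2768 fibroblast-like cells of the Lin28-/cKit- library held 3 UMIs. As a share of cells with a UMI, macrophage-like cells reached 2.87% and 3.36% in the 2 Lin28+ libraries against 0.108% of fibroblast-like cells, at median depths of 9903, 13872 and 10124. No Cdkn2a UMI was found in 243 endothelial-like cells of the Lin28+/cKit- library, where 3 counts would be 1.52 CPM.

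Clusters within a class showed where the well-counted genes varied. No member was used to form the clusters. Endothelial-like cells formed 4 clusters, led by Car4 and Timp4 (capillary genes), by Hey1 and Sema3g (arterial genes), by Col13a1 with other genes, and by Npr3 and Nrg1 (endocardial genes). The first of these held 58.4%, 62.6% and 39.1% of endothelial-like cells in the Lin28+/cKit+, Lin28+/cKit- and Lin28-/cKit- libraries, and the Hey1 cluster 25.4%, 14.0% and 35.6%. Cdkn1c stood at 605.2, 479.5 and 588.1 CPM in the Car4 cluster, at 899.1, 474.4 and 710.5 in the Hey1 cluster, at 362.8, 155.0 and 236.6 in the Col13a1 cluster and at 211.3, 123.4 and 171.3 in the Npr3 cluster. In each of the 3 libraries the Npr3 cluster was lowest, and in each of the 4 clusters the Lin28+/cKit- library was lowest.

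The Npr3 cluster was also lowest for Cdkn1a. It held 2 UMIs in 32 Lin28+/cKit+ cells (6.60 CPM), 1 UMI in 11 Lin28+/cKit- cells (12.3 CPM) and 95 UMIs in 106 Lin28-/cKit- cells (110.7 CPM). The Car4 cluster held 286.7, 288.2 and 193.7 CPM in the same libraries. The ratio of the Car4 to the Npr3 cluster was 43.4 [12.0 to 360] in the Lin28+/cKit+ library, 23.4 [4.17 to 925] in the Lin28+/cKit- library and 1.75 [1.38 to 2.23] in the Lin28-/cKit- library. The ratios of the Lin28+ libraries rest on 2 UMIs and 1 UMI in the Npr3 cluster.

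**Figure D2:**
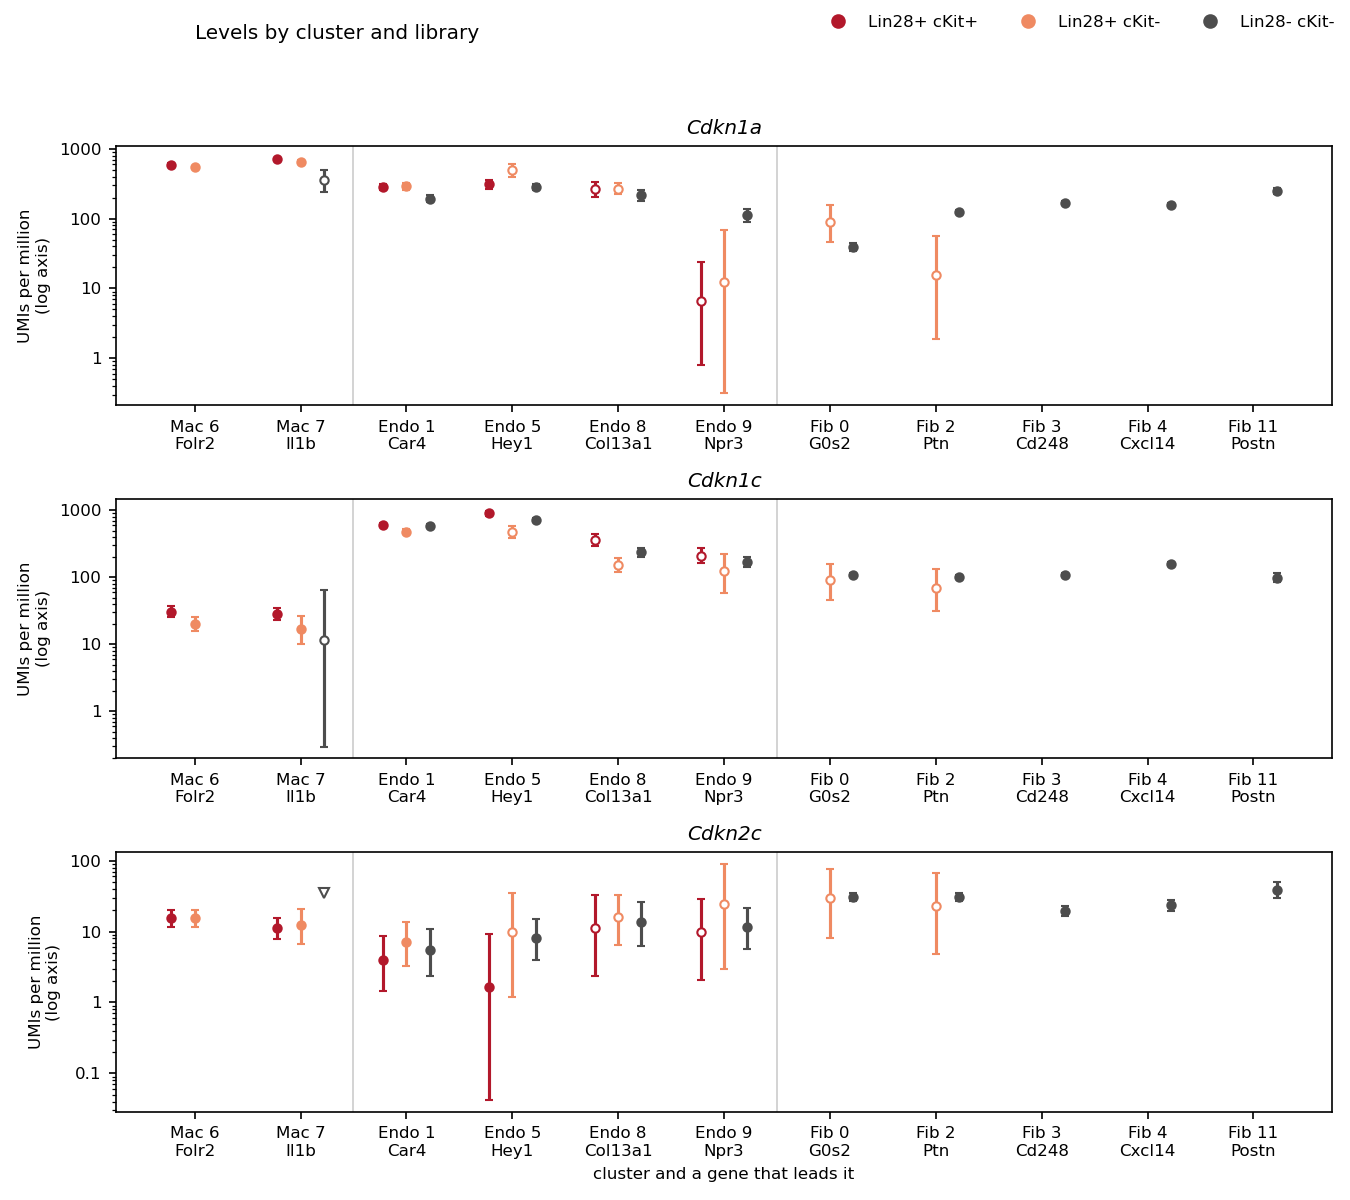
Level (CPM, log axis) of Cdkn1a, Cdkn1c and Cdkn2c in each cluster with at least 10 cells of a library, with exact Poisson 95% intervals open symbols under 50 cells and a triangle at the limit of 3 counts where no UMI was found. Cdkn1c is lowest among the 4 endothelial-like clusters in the Npr3 cluster, at 211.3, 123.4 and 171.3 CPM, and Cdkn1a over the fibroblast-like clusters of the Lin28-/cKit- library runs between 39.3 and 249.0 CPM.

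Macrophage-like cells formed a Folr2 cluster of resident type and a cluster led by Il1b and MHC class II genes. Different clusters held most of the class in the 2 Lin28+ libraries, with 56.1% of macrophage-like cells in the Il1b cluster in the Lin28+/cKit+ library and 33.6% in the Lin28+/cKit- library. Cdkn1a was 712.5 and 641.7 CPM in the Il1b cluster and 593.0 and 545.0 CPM in the Folr2 cluster of the Lin28+/cKit+ and Lin28+/cKit- libraries, 1.20-fold and 1.18-fold higher in the Il1b cluster. Cdkn2a went the other way. The Il1b cluster held 8 UMIs and the Folr2 cluster 22 in the Lin28+/cKit+ library, and 0 and 14 in the Lin28+/cKit- library. Ratios of CPM, Il1b over Folr2 cluster, were 0.396 [0.152 to 0.924] and 0 [0 to 0.884].

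Fibroblast-like cells could be split only in the Lin28-/cKit- library, where all 5 clusters exceeded 100 cells. Cdkn1a was 249.0 CPM in the Postn and Cilp cluster, 168.9 in the Cd248 cluster, 156.6 in the Inmt and Cxcl14 cluster, 122.8 in the Ptn cluster and 39.3 in the G0s2 cluster. The highest was 6.34-fold [5.40 to 7.44] above the lowest. The Postn and Cilp cluster, led by matrix genes of activated fibroblasts, held 4.43-fold [1.85 to 10.5] more Cdkn2b and 1.96-fold [1.43 to 2.66] more Cdkn2c than the Cd248 cluster, and 0.597 [0.388 to 0.886] of its Cdkn2d. Cdkn1b differed little between those clusters, with a ratio of 0.987 [0.779 to 1.24]. Cdkn1c was 156.2 CPM in the Inmt and Cxcl14 cluster and 107.7 in the Cd248 cluster, a ratio of 1.45 [1.32 to 1.60].

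The first comparison between sorts set Lin28+/cKit- cells against Lin28-/cKit- cells, which share a negative cKit sort and differ in surface Lin28. Over whole libraries 2 of 7 members were called, both higher, where 47.5% of 13765 genes were called in either direction. Cdkn1a was 3.21-fold [3.07 to 3.36] higher and Cdkn2a 17.2-fold [7.72 to 43.5] higher, from 30 against 8 UMIs. Ratios of the others were 0.909 for Cdkn1b, 0.789 for Cdkn1c, 0.945 for Cdkn2b, 0.751 for Cdkn2c and 0.672 for Cdkn2d, and none of these 5 was called. The share of members called was below that of all genes. The median log2 ratio was -0.14 over the 7 members and -0.05 over all genes. The 2 libraries differ in cell makeup, 268 against 14 macrophage-like cells and 34 against 2768 fibroblast-like cells, and fewer cells of a type and less RNA per cell cannot be told apart in such sums.

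Within endothelial-like cells that contrast called 0 of 5 members with enough UMIs, where 10.9% of 10286 genes were called. Cdkn1a was 293.4 CPM in Lin28+/cKit- cells and 205.8 in Lin28-/cKit- cells, a ratio of 1.43 [1.28 to 1.59] under the threshold. By cluster the Cdkn1a ratio was 1.49 in the Car4, 1.74 in the Hey1, 1.25 in the Col13a1 and 0.111 in the Npr3 cluster, the last from 1 UMI in Lin28+/cKit- cells. Cdkn1c was 392.2 and 483.5 CPM, a ratio of 0.811 [0.746 to 0.882], and its ratio was 0.815, 0.668, 0.655 and 0.720 in the same clusters. All 4 Cdkn1c ratios lay below 1. Cluster ratios past the threshold were those of Cdkn1a in the Hey1 and Npr3 clusters and of Cdkn1c in the Col13a1 cluster, each with fewer than 50 Lin28+/cKit- cells. Cdkn1b, Cdkn2c and Cdkn2d had ratios of 1.04, 1.15 and 0.974, and Cdkn2a and Cdkn2b had too few UMIs. Fibroblast markers summed to 220.4 CPM in endothelial-like cells of the Lin28+/cKit- library, with Tcf21 at 0, and to 4100 CPM in those of the Lin28-/cKit- library, with none of the 10 at 0. Macrophage markers summed to 237.6 and 5.01 CPM in the same cells, with 6 of 10 at 0 in the Lin28-/cKit- library. Their part in the result was not tested. With cells thinned to 1000 UMIs the Cdkn1a ratio was 1.505 [1.14 to 1.98], which passes the threshold.

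The second comparison set Lin28+/cKit+ cells against Lin28+/cKit- cells. Over whole libraries 0 of 7 members were called, where 9.79% of 12200 genes were called. Cdkn1a had a ratio of 1.18 and Cdkn1c of 1.41 [1.31 to 1.53], while Cdkn2c was lower at 0.696 [0.543 to 0.891]. With TMM scaling Cdkn1c reached 1.527 and passed the threshold, as it did at 1.53 without the cells of highest doublet scores.

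Within endothelial-like cells the second comparison called 1 of 5 members, where 6.95% of 9650 genes were called. Cdkn1c rose to 602.5 CPM in Lin28+/cKit+ cells, against 392.2 CPM in Lin28+/cKit- cells, a ratio of 1.54 [1.41 to 1.68]. Its ratio by cluster was 1.26 in the Car4 cluster, 1.90 in the Hey1 cluster, 2.34 in the Col13a1 cluster and 1.71 [0.873 to 3.74] in the Npr3 cluster. All 4 lay above 1, and in the Car4 cluster, which holds most of the cells, Cdkn1c was not called. Cdkn1a had a ratio of 0.879 [0.786 to 0.983]. Cdkn2c had 13 UMIs in Lin28+/cKit+ cells and 20 in Lin28+/cKit- cells, a ratio of 0.479 [0.219 to 1.01] whose interval includes 1. The median log2 ratio was -0.06 over the 5 members and -0.01 over all genes. Fibroblast markers summed to 508.9 CPM in endothelial-like cells of the Lin28+/cKit+ library and to 220.4 in those of the Lin28+/cKit- library, and their part in the result was not tested.

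Within macrophage-like cells the second comparison called 1 of 7 members, where 5.96% of 10490 genes were called, and the gene was again Cdkn1c. It rose to 29.7 CPM in Lin28+/cKit+ cells, against 19.4 CPM in Lin28+/cKit- cells, from 202 and 86 UMIs, a ratio of 1.54 [1.19 to 2.00]. Its ratio was 1.52 in the Folr2 cluster and 1.70 in the Il1b cluster. The 10 endothelial markers summed to 144.7 CPM in macrophage-like cells of the Lin28+/cKit+ library and to 110.2 in those of the Lin28+/cKit- library. Subtracting the library's own profile at the share of its level that those markers reach, 6.79% in the Lin28+/cKit+ library and 5.12% in the Lin28+/cKit- library, gave a ratio of 1.38 [0.997 to 1.93], an alternative added after seeing the data. Subtracting at the lowest share that markers of any other main class reach, 6.79% for endothelial markers in the Lin28+/cKit+ library and 3.19% for fibroblast markers in the Lin28+/cKit- library, gave 1.175 [0.864 to 1.61], with unequal shares that by construction lower the ratio. Neither value is called. Cdkn1a stood at 650.2 and 569.6 CPM, a ratio of 1.14 [1.09 to 1.20] below the threshold.

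**Figure D3:**
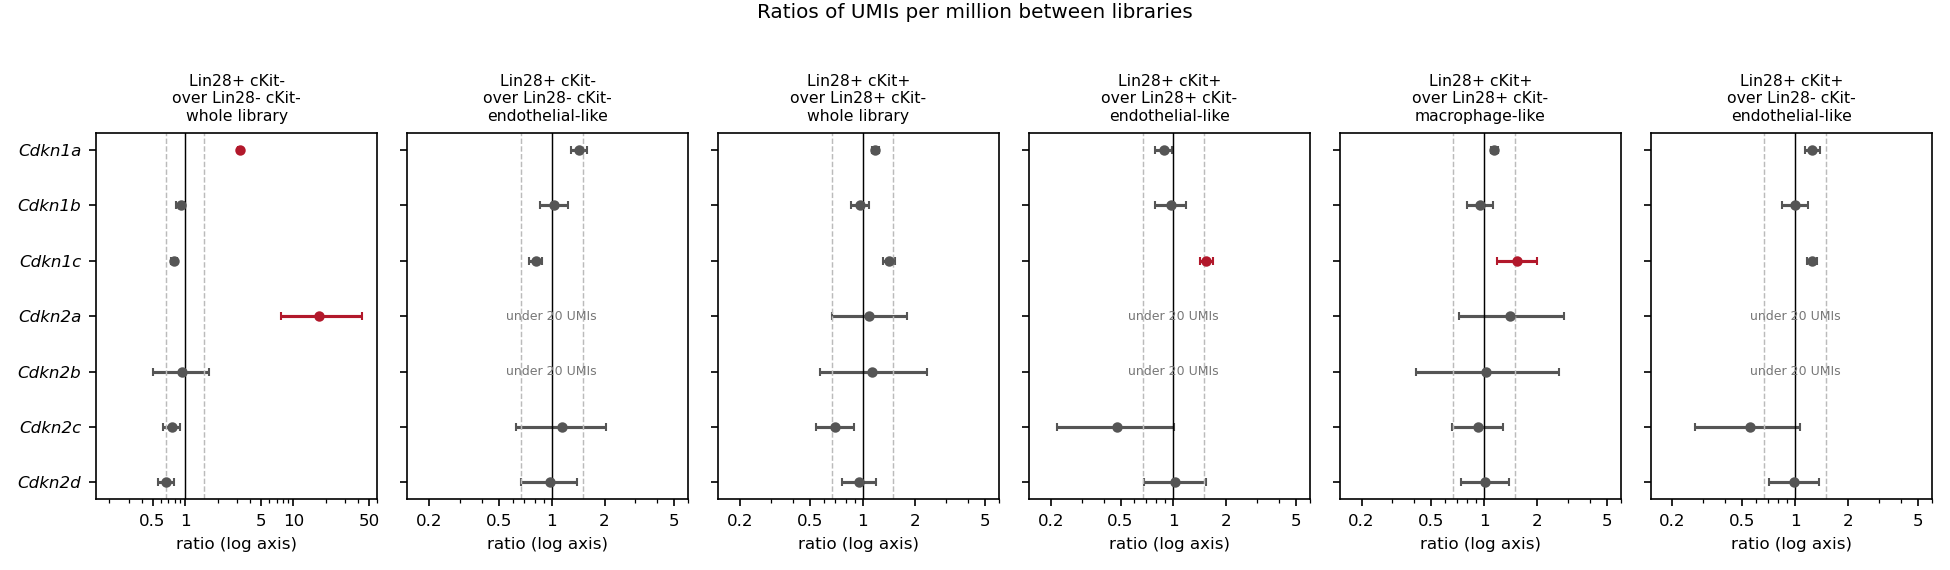
Ratio of each inhibitor gene (log axis, exact 95% interval) in the 6 comparisons, with the 1.5-fold threshold marked. Only Cdkn1a (3.21) and Cdkn2a (17.2) over whole Lin28+/cKit- against Lin28-/cKit- libraries, and Cdkn1c (1.54 in endothelial-like and 1.54 in macrophage-like cells) for Lin28+/cKit+ against Lin28+/cKit-, are called.

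Lin28+/cKit+ endothelial-like cells set against Lin28-/cKit- endothelial-like cells called 0 of 5 members, where 8.92% of 10494 genes were called. Cdkn1a and Cdkn1c had ratios of 1.25 each. These 3 endothelial comparisons share libraries in pairs, so they are not independent of each other.

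Cells with UMIs of at least 5 of 24 proliferation genes were counted as cycling. They were 32 cells of the Lin28+/cKit+ library (2.72%), 21 of the Lin28+/cKit- library (3.08%) and 9 of the Lin28-/cKit- library (0.226%). They were deeper than the rest, with median UMIs of 22502, 27309 and 13094 in cycling cells and 7878.5, 9517 and 8627 in other cells, and the part of depth in the results on them was not tested. Cdkn1c was lower in cycling cells of the Lin28+ libraries. Its ratio to other cells was 0.119 [0.0664 to 0.197] in the Lin28+/cKit+ library and 0.2004 [0.109 to 0.338] in the Lin28+/cKit- library. In the Lin28-/cKit- library it was 0.777 [0.444 to 1.26], with an interval that includes 1. Of the 32 cycling Lin28+/cKit+ cells 12 were macrophage-like and 12 more, in an unnamed cluster led by proliferation genes, had mostly macrophage markers, and macrophage-like cells of that library held 29.7 CPM of Cdkn1c. The macrophage-like class leaves out that unnamed cluster. Within that class alone the Cdkn1c ratios were 1.09 [0.463 to 2.19] and 0.912 [0.325 to 2.07] in the Lin28+/cKit+ and Lin28+/cKit- libraries. Endothelial-like cells of the Lin28+/cKit+ library, with 3 cycling cells, gave 0 [0 to 0.170]. Fibroblast-like cells of the Lin28-/cKit- library, with 2 cycling cells, gave 2.25 [1.16 to 3.93].

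Of the INK4 genes, 3 had ratios above 1 over all cycling cells. Cdkn2a had a ratio of 5.94 [2.87 to 11.6] in the Lin28+/cKit+ library and 4.15 [1.503 to 9.99] in the Lin28+/cKit- library, and 1 UMI in cycling cells of the Lin28-/cKit- library. In the Lin28+/cKit+, Lin28+/cKit- and Lin28-/cKit- libraries Cdkn2c had ratios of 2.69 [1.58 to 4.36], 3.89 [2.505 to 5.89] and 4.35 [2.31 to 7.49]. Those of Cdkn2d were 1.57 [0.926 to 2.53], 3.27 [2.10 to 4.93] and 7.08 [4.60 to 10.4], the first with an interval that includes 1. Of the Cdkn2a UMIs in cycling cells, 13 of 13 in the Lin28+/cKit+ library and 5 of 7 in the Lin28+/cKit- library lay in unnamed cells. Within macrophage-like cells alone the Cdkn2a ratio was 0 [0 to 3.45] in the Lin28+/cKit+ library and 2.03 [0.2202 to 9.10] in the Lin28+/cKit- library. The Cdkn2c ratios there were 0.899 [0.182 to 2.71] and 0.190 [0.00474 to 1.10], and those of Cdkn2d 0.507 [0.0606 to 1.88] and 0.9495 [0.298 to 2.33]. No ratio above 1 past its interval was found within that class. By the naming rule, however, the class leaves out the unnamed cluster led by proliferation genes. That cluster holds 16 of the 32 cycling Lin28+/cKit+ cells and 8 of the 21 cycling Lin28+/cKit- cells. The ratios within the class therefore cannot show what those cells held. Single cells weigh heavily on the values over all cells. The ratios were also taken without the 1 cycling cell that held most UMIs of the gene. Cdkn2c then had ratios of 2.27 [1.25 to 3.84], 1.10 [0.462 to 2.24] and 1.99 [0.644 to 4.66]. Those of Cdkn2d were 1.13 [0.592 to 1.99], 1.19 [0.557 to 2.27] and 3.24 [1.55 to 5.98]. Cdkn2a had 3.81 [1.52 to 8.41] and 2.56 [0.644 to 7.49] in the first 2 libraries. In the Lin28+/cKit- library 1 cell with mostly endothelial markers held 22 Cdkn2c UMIs of 30, and 1 such cell 19 Cdkn2d UMIs.

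Cdkn1a had ratios of 1.25 [1.13 to 1.38], 1.58 [1.41 to 1.77] and 0.172 [0.0355 to 0.503] in the Lin28+/cKit+, Lin28+/cKit- and Lin28-/cKit- libraries, the last from 3 UMIs in 9 cycling cells. Within cells named macrophage-like the Cdkn1a ratio was 0.661 [0.541 to 0.800] in the Lin28+/cKit+ library and 1.06 [0.915 to 1.23] in the Lin28+/cKit- library. In the first of these, cycling cells of the class held 435.0 CPM and its other cells 658.4 CPM. The class leaves out 12 Lin28+/cKit+ cells with mostly macrophage markers in the cluster led by proliferation genes, at 957.5 CPM. The lower ratio therefore holds for the named class only. Cdkn1b had ratios of 1.15, 0.459 [0.260 to 0.753] and 1.10 in the 3 libraries, lower in cycling cells of the Lin28+/cKit- library alone.

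The unnamed cluster led by proliferation genes held 16, 8 and 4 cells of the 3 libraries. Its 12 Lin28+/cKit+ cells with mostly macrophage markers had 11 Cdkn2a UMIs in 6 cells (45.4 CPM) and Cdkn1a at 957.5 CPM. Its 6 such Lin28+/cKit- cells had 4 Cdkn2a UMIs in 2 cells (40.0 CPM) and Cdkn1a at 1191 CPM. For comparison, macrophage-like cells held 4.42 and 3.15 CPM of Cdkn2a in the same libraries.

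**Figure D4:**
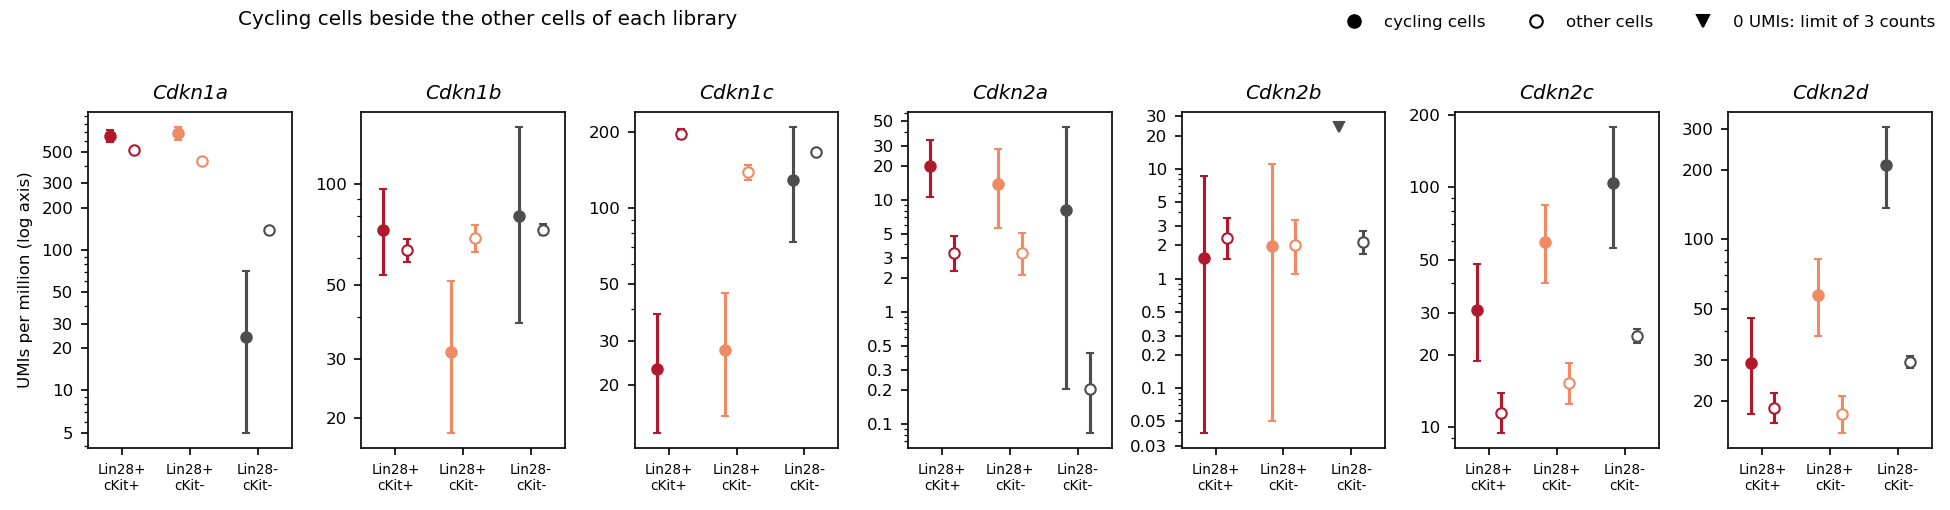
Level (CPM, log axis) of each inhibitor gene in cycling cells (filled) and other cells (open) by library, with exact Poisson 95% intervals and a triangle at the limit of 3 counts where no UMI was found. Cdkn2a is higher in cycling cells of the Lin28+/cKit+ and Lin28+/cKit- libraries (ratios 5.94 and 4.15) and Cdkn1c lower (0.119 and 0.2004), over cells of all classes. Within macrophage-like cells, a class that leaves out the unnamed cluster led by proliferation genes, the Cdkn2a intervals include 1.

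Most cells held transcripts of several inhibitors. At least 2 members were found in 56.6% (Lin28+/cKit+) and 68.3% (Lin28+/cKit-) of macrophage-like cells, in 64.2%, 70.4% and 45.2% of endothelial-like cells of the 3 libraries and in 57.9% of fibroblast-like cells of the Lin28-/cKit- library. No member was found in 8.62% and 6.72% of macrophage-like cells, 7.67%, 6.996% and 16.4% of endothelial-like cells and 13.7% of fibroblast-like cells, in the same order. These shares follow no fixed depth. The endothelial-like cells of the Lin28-/cKit- library, with the most cells without a member, also had the lowest median depth of 4057 UMIs.

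Genes around the inhibitors were read from 6 lists of their partners and regulators. Over whole libraries, Lin28+/cKit- against Lin28-/cKit- called 47.5% of all 13765 genes, 3041 higher and 3499 lower. Of 11 cyclins and kinases 7 were higher and 0 lower, led by the mitotic kinase Cdk1 at 16.8-fold and its cyclin Ccna2 at 11.04-fold. Those 2 genes had 73 and 24 UMIs in Lin28+/cKit- cells. Of 23 proliferation genes, which include 4 of those cyclins and kinases, 21 were higher and 1 lower. Of 12 pocket proteins and E2F factors 4 were higher, with E2f1, which drives S-phase genes, at 9.73-fold and the pocket protein Rbl1 at 2.74-fold, and 2 were lower. The 2 libraries had 3.08% and 0.226% cycling cells, but those cells were defined by the same list of proliferation genes. The shares are therefore not separate support for these counts.

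Of 27 upstream regulators 11 were higher and 3 lower in that contrast, where 47.5% of all 13765 genes were called, so the shares of regulators and of pocket proteins and E2F factors called are near the background. The largest ratios were those of Cebpa, a factor of myeloid cells, at 6.30-fold, Ets2 at 4.01-fold, and Klf6, an activator of Cdkn1a, at 3.95-fold. Trp53, the gene of p53, had a ratio of 0.970 and its target Mdm2 of 1.16, neither called, and both were named here after their values were seen. Of 11 genes listed with the ubiquitin ligases 2 were higher, Pcna at 3.71-fold and Fbxw7 at 1.76-fold, and Cks1b was lower at 0.344. Pcna is not itself a ligase part and is also among the proliferation genes counted above. Of 8 other inhibitor-related genes 3 were higher, among them Tbx3 at 2.94-fold, while its relative Tbx2 was lower at 0.284.

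Within endothelial-like cells, where the same contrast called 10.9% of all 10286 genes, 2 of 7 cyclins and kinases were higher, Ccne2 at 2.55-fold from 12 against 10 UMIs and Cdk6 at 1.60-fold. Of 27 regulators 1 was higher, Cebpb at 1.59-fold, and 2 were lower, Smad3 at 0.170 and Myc at 0.187, from 2 against 25 and 3 against 34 UMIs. The share of regulators called was near that of all genes. Myc is known to repress Cdkn1a and Cdkn2b, and its part in their levels was not tested. None of 10 pocket proteins and E2F factors was called. Of 10 genes listed with the ubiquitin ligases Pcna was higher at 2.60-fold and Cks1b lower at 0.314. Tbx3 was higher at 1.71-fold of 6 other genes. Of 6 proliferation genes 3, Pcna again among them, were higher and 1 lower.

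For Lin28+/cKit+ against Lin28+/cKit- in macrophage-like cells, where 5.96% of all 10490 genes were called, 1 of 27 regulators was called. This was Id1, a target of BMP signalling, at 51.1 CPM in Lin28+/cKit+ cells and 30.9 CPM in Lin28+/cKit- cells, which stood at 2284 and 2256 CPM in endothelial-like cells of those libraries. Of 10 genes listed with the ubiquitin ligases 1 was called. Skp2, which targets the Cdkn1b protein for destruction, was higher at 2.36-fold from 47 against 13 UMIs. A count of 1 in 27 is not above the share of all genes, and 1 in 10 cannot be told from it. None of 7 cyclins and kinases, 10 pocket proteins and E2F factors, 10 proliferation genes and 5 other genes was called there. In endothelial-like cells that contrast called 6.95% of all 9650 genes. Of the lists, 0 of 6 cyclins and kinases and 0 of 10 pocket proteins and E2F factors were called. Likewise 0 of 25 regulators and 0 of 6 other genes were called. There Pcna was lower at 0.546, alone of 8 genes listed with the ubiquitin ligases. Of 6 proliferation genes 1 was higher and 2, Pcna again among them, were lower.

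Genes whose levels ran most like a member's were ranked by Pearson correlation of log2(CPM + 1) over the 6 points of class and library with at least 50 cells, for the 6 members with at least 100 UMIs in all. The points share libraries and cell types, and with 6 of them many genes come near 1. Nearest to Cdkn1a were Zfp395 (0.998), Tnf and Arid3a, nearest to Cdkn1b Agrn (1.000), Tjp1 and Zzz3, and nearest to Cdkn1c Rbm10 (0.999), Chchd2 and Cct7. Nearest to Cdkn2b were Mrps2 (0.975), Sptssa and Zbtb40, nearest to Cdkn2c Hs2st1 (0.995), Nanos1 and Map3k2, and nearest to Cdkn2d Uqcc2 (0.998), Zfp9 and Bmp1. Over 20 points of cluster and library, an alternative chosen after seeing the data, the nearest to Cdkn1c were Adamts9 (0.974), Tbxa2r and Arhgef12, to Cdkn1a Rac3 (0.834), Tnfrsf11a and Klf6, to Cdkn2c Arhgap6 (0.903) and to Cdkn2d Stim1 (0.963). The 2 sets of points shared none of the 3 nearest genes of any member.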

How the data were processed

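The deposited tables, 1 per library, hold natural log (ln) values made by the authors, in which a gene's share of its cell's UMIs was multiplied by 10000 and 1 was added before the log. The submitters' processing notes name Cell Ranger, Seurat 4.0.2 and the build mm10. Undoing the log gave whole UMI numbers for 100% of values within 0.01, so UMIs were recovered and used in place of the counts the plan assumed. All 5833 cells, with at least 500 UMIs and at most 9.99% mitochondrial UMIs each, were used. Total UMIs were 10400648, 7401174 and 34031955 in the Lin28+/cKit+, Lin28+/cKit- and Lin28-/cKit- libraries.

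Cells were clustered together with scanpy 1.11.5 and leidenalg 0.10.2 (2000 variable genes without Kit and the 7 inhibitor genes, 30 principal components, 15 neighbours, resolution 1), and clusters were named from marker lists of 17 types. Clusters with strong markers of a second type, low depth or proliferation genes in the lead stayed unnamed. Scrublet marked 26 of 5833 cells (0.446%), was treated as not having worked, and no doublet was removed. Intervals are exact Poisson (levels), conditional binomial (ratios) and Clopper-Pearson (shares), from scipy 1.17.1. A class was compared where both libraries had at least 50 of its cells. The named genes are the 7 members whatever their values, 2 to 4 members of a list with the largest ratios, and the 3 genes nearest to each member in level. The members and lists were chosen with earlier results of these data known. The script for ratios was tested on simulated counts. Alternatives covered scaling, cell filters, clustering, cell naming, free RNA, thinning and thresholds.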

Additional observations from a re-analysis of the deposited data

Results flagged for a closer look

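Ratios of Cdkn1a CPM lay on opposite sides of 1 between cell types under the same contrast, with intervals that leave out 1. These differences of ratios were not tested. For Lin28+/cKit+ against Lin28+/cKit- cells the Cdkn1a ratio was 0.879 [0.786 to 0.983] in endothelial-like cells (257.8 and 293.4 CPM) and 1.14 [1.09 to 1.20] in macrophage-like cells (650.2 and 569.6 CPM). By cluster it was 0.634 [0.495 to 0.817] in the Hey1 endothelial-like cluster, from 186 UMIs in 109 cells and 100 UMIs in 34 cells, and 1.09 [1.02 to 1.16] in the Folr2 and 1.11 [1.02 to 1.21] in the Il1b macrophage-like cluster. It was 0.995 in the Car4 cluster and 0.970 [0.7097 to 1.32] in the Col13a1 cluster, so the value below 1 past its interval stood in the Hey1 cluster, with its 34 Lin28+/cKit- cells.

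For Lin28+/cKit- against Lin28-/cKit- cells the Cdkn1a ratio was 1.49 [1.27 to 1.75] in the Car4 cluster and 1.74 [1.38 to 2.18] in the Hey1 cluster, but 0.111 [0.00279 to 0.636] in the Npr3 cluster, from 1 UMI in 11 cells and 95 UMIs in 106 cells. For Lin28+/cKit+ against Lin28-/cKit- cells it was 1.48 [1.27 to 1.73] in the Car4 cluster and 0.0596 [0.00712 to 0.221] in the Npr3 cluster, from 2 UMIs in 32 cells and 95 UMIs in 106 cells. The low Npr3 values rest on 1 and 2 UMIs.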

How the results depend on the processing

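No paired analysis was possible because each group is 1 library. Over 54 ratios and their alternatives, 497 of 548 values stayed inside the interval of the ratio as reported, 0 reversed a called direction and 11 differed by over 1.5 times; alternatives that left under 20 UMIs gave no ratio, and all 21 shares of cells fell with thinning. The causes of the differences were not tested. For Lin28+/cKit- against Lin28-/cKit- libraries Cdkn1a was 2.62-fold with each cell weighted equally and 2.88-fold thinned. The number of members called there was 2, and 4 without the highest doublet scores or without the 1 cell with most UMIs of the gene (Cdkn2c at 0.631 and 0.636 and Cdkn2d at 0.584 and 0.598 were then lower), 1 thinned and 1 with a minimum of 50 UMIs; within endothelial-like cells it was 0, and 1 thinned or with cells named one by one. For Lin28+/cKit+ against Lin28+/cKit- libraries it was 0, and 1 with TMM or without the highest doublet scores. Within endothelial-like cells it was 1, and 2 without the top cell, with cells named one by one or with free RNA subtracted (Cdkn2c, 0.426, 0.291 and 0.457), and 0 in the Car4 cluster alone (Cdkn1c 1.26, added after seeing the data) or with a 2-fold threshold. Within macrophage-like cells it was 1, and 0 thinned, at Leiden resolutions 0.5 and 2, with cells named one by one, with free RNA subtracted (Cdkn1c 1.175, at 6.79% and 3.19% of the 2 library profiles, and 1.38 by endothelial markers in both, added after seeing the data) or with a 2-fold threshold. Macrophage-like over endothelial-like Cdkn1a was 3.49 (TMM), 2.31 (equal weight) and 2.79 (thinned) in the Lin28+/cKit+ library and 2.555 (TMM) in the Lin28+/cKit- library; Cdkn1c was 0.0683 (TMM), 0.0324 (thinned) and 0.0298 (free RNA) in the Lin28+/cKit+ library and 0.0650 (TMM) and 0.0295 (thinned) in the Lin28+/cKit- library. Fibroblast-like over endothelial-like cells of the Lin28-/cKit- library gave Cdkn1a 0.711 (TMM) and 0.567 (thinned), and Cdkn1c 0.270 (TMM), 0.2135 (equal weight), 0.219 (thinned), 0.255 (Leiden resolution 2) and 0.209 (free RNA). Over the 6 class points rank correlation shared 0 of the 3 nearest genes of any member, but many genes tie there. Cdkn2a and Cdkn2b, with at most 46 and 73 UMIs per library, are limited by depth.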
